A study of Mus musculus with 6 samples.

Results

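Haematopoietic stem cells read signals from the marrow through receptor tyrosine kinases, type I cytokine receptors and receptors for interferon and interleukin 1. The levels of 9 such genes were followed in mouse bone marrow stem cells, taken by symbol from a table of 18465 genes, and all 9 had a row. Of these genes 8 encode receptors or receptor chains (Kit, Tek, Csf3r, Csf2rb, Il6st, Il6ra, Ifngr1 and Il1r1), while Angpt1 encodes a secreted ligand, so the name receptor does not cover it. The cells were the SLAM-LSK fraction, sorted for CD150, Sca-1 and c-Kit and against CD48 and lineage markers. The study compared 3 wild-type (WT) libraries with 3 libraries from animals carrying the R751W allele of the stem cell transcription factor Mecom on one chromosome (MecomWT:R751W). Both groups were on the C57BL/6 background, were untreated as far as the labels say, and have no age or sex in the labels. The labels call the libraries biological replicates without saying whether mice were pooled, and p-values cover the spread among these 6 libraries alone. They also list several library kits, directional and low-input ones among them, without saying which made these libraries.

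Kit is the receptor for stem cell factor, and its signal keeps stem cells and mast cells alive. Tek encodes TIE2, the receptor of angiopoietins on endothelium and stem cells, and Angpt1 encodes angiopoietin 1, its activating ligand. Csf3r binds G-CSF, and Csf2rb encodes the beta chain shared by the receptors for GM-CSF, IL-3 and IL-5. Il6st encodes gp130, which is shared by many receptors of the IL-6 family, and Il6ra gives the chain that binds IL-6. These cytokine receptors have no kinase of their own and act through JAK kinases and STAT factors. Ifngr1 is the ligand-binding chain of the interferon gamma receptor, which stem cells use in infection, and Il1r1 is the signalling receptor of IL-1, which pushes stem cells towards myeloid output.

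In RefSeq on GRCm38, the receptor kinase gene Kit lies at chr5:75574987-75656722 and Tek at chr4:94739086-94874976, and the ligand gene Angpt1 at chr15:42424667-42676977. Csf3r lies at chr4:126023441-126044975, Csf2rb at chr15:78325800-78351001, Il6st at chr13:112464070-112506860 and Il6ra at chr3:89869324-89913196. Ifngr1 lies at chr10:19591949-19610229 and Il1r1 at chr1:40222480-40316201. Each range is the whole gene, introns included.

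Csf2rb has a close paralog beside it on chromosome 15, Csf2rb2, which in mice encodes a beta chain used by IL-3 alone. A coding stretch of each is shown because Csf2rb had the largest genotype difference among the 9 genes and shares stretches of sequence with Csf2rb2. These 90 bases are the stretch of the alignment with the most differences, 16 bases, which are in capitals. They lie at chr15:78338897-78338986 on the plus strand for Csf2rb and at chr15:78294345-78294434 on the minus strand for Csf2rb2 in GRCm38, each inside 1 coding exon of the GENCODE annotation.
Csf2rb: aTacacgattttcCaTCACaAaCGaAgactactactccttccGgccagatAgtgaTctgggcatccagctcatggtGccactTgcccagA
Csf2rb2: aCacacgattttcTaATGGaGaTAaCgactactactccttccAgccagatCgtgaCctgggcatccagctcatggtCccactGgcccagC
Over the whole coding region, 2503 of 2628 aligned bases were identical (95.2%), and the longest identical run was 242 bases. Of all 50-base windows of the longest-coding Csf2rb transcript, 18.4% also occurred in that of Csf2rb2, and of 75-base windows 10.7%. The sources used here do not say how reads that fit both genes were counted, so part of each value could belong to the other gene.

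The promoters of Kit and Tek are shown because both genes lay lower in MecomWT:R751W cells once libraries were put on 1 protein-coding total. Each holds the 250 bases before a RefSeq start site (GRCm38.p6, plus strand). Capitals mark a match to a motif searched on both strands: a GATA word (AGATAA, or the same with T as its first or G as its last base, or both), the word GATGAG that lies in the site of the distal zinc fingers of EVI1 (MECOM), or the STAT word TTCNNNGAA. The Kit window is chr5:75574737-75574986 and the Tek window chr4:94739039-94739288. The Tek window reaches past the first base of the Tek range given above, so most of it lies inside the gene, before an inner start site.
Kit: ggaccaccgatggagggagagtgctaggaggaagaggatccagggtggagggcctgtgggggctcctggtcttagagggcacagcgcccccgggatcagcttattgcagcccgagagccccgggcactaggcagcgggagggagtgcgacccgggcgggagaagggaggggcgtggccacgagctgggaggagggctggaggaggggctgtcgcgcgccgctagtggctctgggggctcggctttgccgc
Tek: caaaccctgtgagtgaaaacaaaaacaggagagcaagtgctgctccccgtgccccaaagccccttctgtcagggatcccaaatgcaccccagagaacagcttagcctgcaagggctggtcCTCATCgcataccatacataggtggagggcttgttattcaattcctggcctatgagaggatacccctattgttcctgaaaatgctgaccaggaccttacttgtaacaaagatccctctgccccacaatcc
The Tek window held 1 match, CTCATC, which is GATGAG on the other strand. It lay at position -130 from that inner start site, inside the Tek range, and these letters are not in the Kit window. Of all 32851 promoter windows of this length, 10.1% held GATGAG, 26.5% a GATA word and 7.02% the STAT word. Promoter windows were matched for 7 of the 9 genes, and among these 7 the Il6ra window held a GATA word and the Tek window GATGAG. These matches describe letters in the window and say nothing about binding.

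Levels are given in TPM, a unit of reads per gene length brought to 1 common sum, so levels of different genes can be set side by side. Short non-coding RNA took 49.83% to 53.22% of TPM, and protein-coding rows took 25.87% to 30.1%. The protein-coding share was lowest in both replicate 2 libraries, at 25.87% in WT and 26.02% in MecomWT:R751W, against 28.88% to 30.1% in the other 4. Values are therefore also given as TPM rescaled so that the protein-coding rows alone make up the TPM total, called scaled TPM here. Whole reads implied by the table numbered 10427533 to 12378149 per library. The gate genes had reads in each library, and 2 of these 4 genes were higher in MecomWT:R751W at an unadjusted p under 0.05, beside 457 of all 16655 genes tested. Cd48, whose protein was selected against, stood between 1.02 and 2.18 TPM in the WT libraries and higher in each MecomWT:R751W library, between 2.27 and 4.10 TPM (unadjusted p = 0.0155, adjusted p = 0.674 by limma). Slamf1 (CD150) ranged over 9.50 to 12.8 TPM in the WT libraries and over 12.2 to 16.5 TPM in the others (unadjusted p = 0.0368, adjusted p = 0.797 by limma), with overlap. Ly6a (Sca-1) was at 10.3 to 13.2 and 8.64 to 11.2 TPM, also with overlap. In scaled TPM Ly6a still overlapped, while Slamf1 lay higher in each MecomWT:R751W library. There Slamf1 was at 33.7, 36.7 and 44.3 in WT and at 55.6, 46.8 and 51.0 in MecomWT:R751W (unadjusted p = 0.00675, adjusted p = 0.24 by limma). The part of these gate differences in the receptor values was not tested.

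The 9 genes ran from abundant to scarce messages. Angpt1 had the highest level, with a mean of 255.7 TPM over the 6 libraries, and ranked 105 among protein-coding genes. Kit followed at 169.1 TPM and ranked 172, in cells selected for its protein. Together they made up 77.5% to 81.2% of the summed TPM of the 9 genes. Ifngr1 was at 46.9 TPM, Csf3r at 17.7 TPM, Tek at 17.1 TPM, Il6st at 11.8 TPM, Csf2rb at 8.63 TPM, Il6ra at 5.36 TPM and Il1r1 at 2.95 TPM. Of the 8 pairs of neighbours in this order, 7 stood in the same order in 6 of 6 libraries (exact two-sided sign-flip permutation test within libraries, p = 0.031, the smallest that 6 libraries allow, and 0.0357 adjusted over the 8 pairs). The exception was Csf3r and Tek, where Csf3r was above Tek in 4 of 6 libraries (exact sign-flip permutation p = 0.656).

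**Figure D1:**
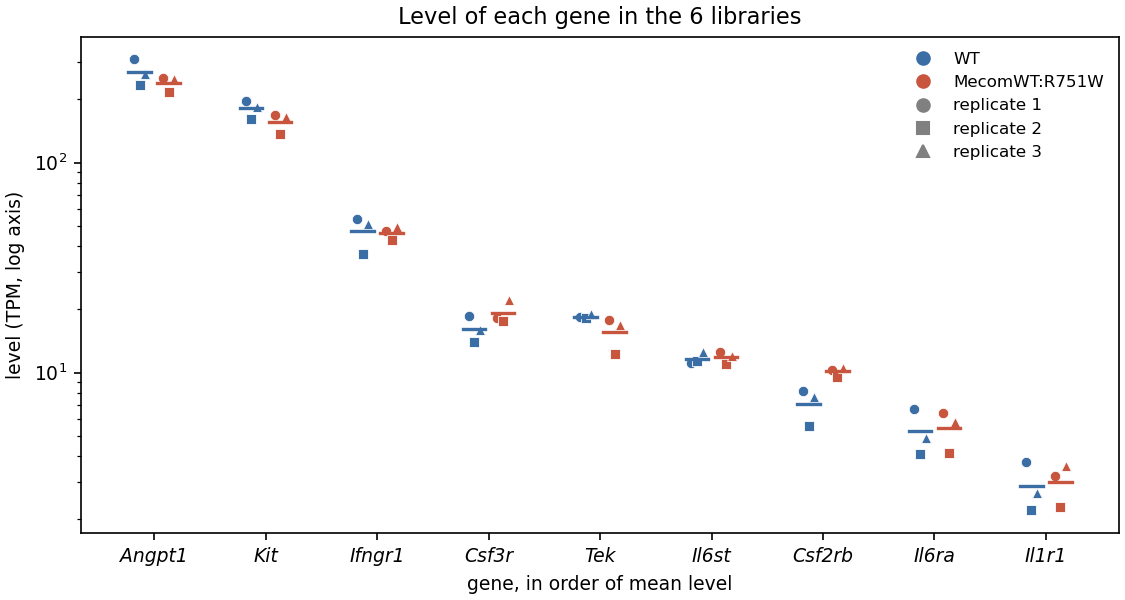
Level in TPM on a log axis for the 9 genes, ordered by mean level, with 1 point per library (colour for genotype, shape for replicate number) and a bar at the mean of each genotype. Angpt1 and Kit stand above the rest, Csf3r and Tek share a level, and the replicate 2 libraries are the lowest of their genotype for 8 of the 9 genes, all but Il6st.

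In the comparison of genotypes, Csf2rb was the gene with the largest difference and lay higher in each MecomWT:R751W library, while Kit, Tek and Angpt1 had lower means there and Csf3r a higher one. Il6st, Il6ra, Ifngr1 and Il1r1 had nearly equal means. None of the 9 genes passed limma's test with Benjamini-Hochberg adjustment over the 16655 genes tested, and neither did any other gene (0 of 16655, or 0%). At an unadjusted p under 0.05 there was 1 of the 9 genes, Csf2rb, beside 5.97% of all genes. Differences below are log2 fold changes on log2(TPM + 1), MecomWT:R751W over WT, with the standard error (SE). In bulk RNA, fewer cells that express a gene and less RNA per cell cannot be told apart.

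Values are listed in the order of replicates 1, 2 and 3. Kit stood at 198, 162 and 185 TPM in WT and at 168, 138 and 164 TPM in MecomWT:R751W. The genotypes overlapped on this scale, since WT replicate 2 lay below 2 of the MecomWT:R751W libraries. The log2 fold change was -0.21 (SE 0.13, adjusted p = 0.970 by limma), with a 95% interval from -0.49 to 0.07. It was -0.12 without MecomWT:R751W replicate 2.
On the scaled TPM, Kit stood at 657, 627 and 639 in WT and at 566, 528 and 569 in MecomWT:R751W. There each WT library lay above each MecomWT:R751W library, and the MecomWT:R751W mean was 86.6% of the WT mean. The log2 fold change stayed at -0.21, with an SE of 0.07 (unadjusted p = 0.00925, adjusted p = 0.254 by limma over 12391 genes). Replicates of Kit varied by 9.92% and 10.7% of their mean in TPM and by 2.35% and 4.08% in scaled TPM (WT and MecomWT:R751W), while the counting error at 6030 to 8722 implied reads per library was about 1.16%.

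Tek, the angiopoietin receptor, was at 18.3, 18.2 and 19.0 TPM in WT and at 17.7, 12.3 and 16.9 TPM in MecomWT:R751W. The groups did not overlap, and MecomWT:R751W replicate 2 was the farthest below WT. The log2 fold change was -0.24 (SE 0.16, adjusted p = 0.984 by limma) and -0.09 without that library. In scaled TPM the values were 60.9, 70.4 and 65.7 in WT and 59.7, 47.4 and 58.3 in MecomWT:R751W, again without overlap, with WT replicate 1 and MecomWT:R751W replicate 1 close together.
Tek is also an endothelial gene. Of 14 endothelial markers, 10 had a row, and their summed level was 163 to 194 TPM in WT and 167 to 206 TPM in MecomWT:R751W, with overlap. Tek and Tie1 are themselves in that list. Members of the list went both ways. Emcn, an endothelial and stem cell surface sialomucin, was higher in each MecomWT:R751W library, at 19.3 to 25.1 TPM against 13.6 to 13.7 TPM in WT (unadjusted p = 0.00152, adjusted p = 0.344 by limma). Plvap, a protein of endothelial fenestrae, was lower in each, as Tek was, at 0.196, 0.236 and 0.616 TPM against 0.941, 0.745 and 1.65 TPM in WT, under the filter for the test. Of the remaining genes of the list only Tek did not overlap, and Kdr, the VEGF receptor of endothelium, was between 0.570 and 1.44 TPM over the 6 libraries. Their part in the Tek values was not tested.

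Angpt1 was at 311, 235 and 266 TPM in WT and at 254, 218 and 250 TPM in MecomWT:R751W. The groups overlapped, with WT replicate 1 above the rest. The log2 fold change was -0.16 (SE 0.13, adjusted p = 1.00 by limma). It was -0.06 without WT replicate 1, -0.09 without MecomWT:R751W replicate 2 and -0.26 without WT replicate 2. In scaled TPM the 3 MecomWT:R751W libraries stood at 853, 839 and 867, all under the WT values of 1032, 910 and 920. The MecomWT:R751W libraries were close to each other there (SD 1.64% of the mean). In the GENCODE annotation 14.2% of the exon bases of Angpt1 overlap exons of the antisense gene Gm17473, and whether reads were counted by strand is not stated.

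**Figure D2:**
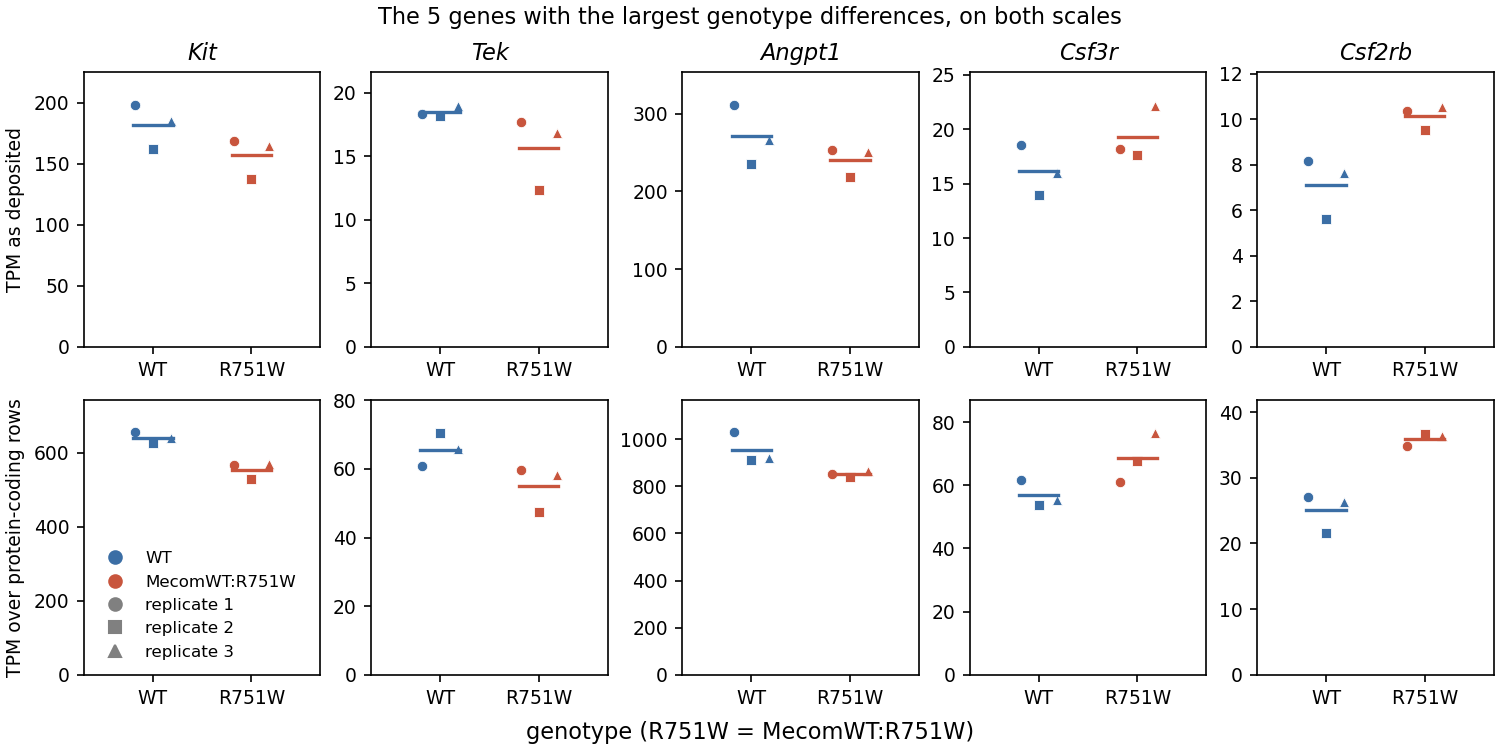
Kit, Tek, Angpt1, Csf3r and Csf2rb in each library, in TPM as deposited (upper row) and in TPM rescaled over protein-coding rows (lower row), with 1 point per library, a bar at the mean of each genotype and axes from 0. On the lower row the genotypes do not overlap for Kit, Tek, Angpt1 and Csf2rb and overlap for Csf3r.

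Csf3r, the G-CSF receptor, was at 18.6, 13.9 and 15.9 TPM in WT and at 18.2, 17.7 and 22.1 TPM in MecomWT:R751W. WT replicate 1 reached into the range of the MecomWT:R751W libraries. The log2 fold change was 0.25 (SE 0.15, adjusted p = 0.977 by limma), and 0.15 without WT replicate 2 or without MecomWT:R751W replicate 3. In scaled TPM the values were 61.7, 53.8 and 55.2 in WT and 61.2, 67.9 and 76.6 in MecomWT:R751W, which still overlapped.
The ratio of Csf3r to Tek within a library, which does not depend on the scale, was looked at after the values were seen. It was 1.01, 0.765 and 0.840 in WT and 1.02, 1.43 and 1.31 in MecomWT:R751W. The order of these neighbours thus differed between the genotype means, with Tek above Csf3r in WT and below it in MecomWT:R751W, and the ratios of the replicate 1 libraries almost met (exact two-sided permutation p = 0.1, the smallest that 3 libraries against 3 allow).

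Csf2rb, the shared beta chain, was at 8.15, 5.59 and 7.62 TPM in WT and at 10.4, 9.52 and 10.5 TPM in MecomWT:R751W. Each MecomWT:R751W library lay above each WT library, and WT replicate 2 was the lowest. The log2 fold change was 0.47 (SE 0.17, unadjusted p = 0.0166, adjusted p = 0.674 by limma), with a 95% interval from 0.10 to 0.84. Leaving out 1 library at a time gave 0.32 to 0.56. In scaled TPM the values were 27.1, 21.6 and 26.4 in WT and 34.8, 36.6 and 36.4 in MecomWT:R751W, or 143.7% of the WT mean, and the log2 fold change was 0.51 (SE 0.12, unadjusted p = 0.00182, adjusted p = 0.185 by limma).
With limma-voom on the implied reads of protein-coding rows, a fit added after the data were seen, Csf2rb passed (log2 fold change 0.53, SE 0.12, adjusted p = 0.0458), where 0.879% of 12520 genes passed. Kit did not pass in that fit (adjusted p = 0.0620). Csf2rb had 224 to 431 implied reads per library.
The paralog Csf2rb2, whose coding sequence is set beside that of Csf2rb above, was at 3.77, 2.77 and 4.10 TPM in WT and at 3.22, 3.39 and 3.77 TPM in MecomWT:R751W, a log2 fold change of -0.02 (SE 0.19). Summed over both genes, the level was 11.9, 8.36 and 11.7 TPM in WT and 13.6, 12.9 and 14.3 TPM in MecomWT:R751W. The sum did not overlap between the groups either, but Csf2rb makes up most of it, so the sum is not a separate observation. How reads that fit both genes were divided was not tested.

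Il6st, the gp130 chain, was at 11.1, 11.4 and 12.5 TPM in WT and at 12.61, 11.0 and 12.03 TPM in MecomWT:R751W. The groups overlapped throughout, and the log2 fold change was 0.02 (SE 0.14, 95% interval from -0.29 to 0.34). Il6ra, its partner for IL-6, was at 6.75, 4.11 and 4.90 TPM in WT and at 6.45, 4.12 and 5.85 TPM in MecomWT:R751W, a log2 fold change of 0.05 (SE 0.21). Both replicate 1 libraries were the highest of their genotype for Il6ra and both replicate 2 libraries the lowest.
Ifngr1 was at 54.1, 36.8 and 51.3 TPM in WT and at 47.5, 42.8 and 49.1 TPM in MecomWT:R751W. WT replicates 1 and 2 lay on either side of all MecomWT:R751W values, and the log2 fold change was -0.01 (SE 0.15, 95% interval from -0.34 to 0.32). Il1r1 was at 3.75, 2.21 and 2.67 TPM in WT and at 3.22, 2.28 and 3.58 TPM in MecomWT:R751W, a log2 fold change of 0.06 (SE 0.21, 95% interval from -0.40 to 0.52). These 4 genes had adjusted p = 1.00 by limma, and their signs turned when single libraries were left out. Il6ra and Il1r1 had the fewest reads, 111 to 171 and 122 to 202 per library, and their replicates varied by 22.0% to 27.5% of the mean in TPM.
WT replicate 1, the highest library for Il6ra, Ifngr1 and Il1r1, also had the highest level of the neutrophil genes Ngp (12.2 TPM against 1.00 to 3.35 TPM elsewhere) and Itgam (8.11 TPM against 2.33 to 4.30 TPM), and of Lyz2 (85.4 TPM against 58.7 to 79.3 TPM). Other genes of that list went the other way, since WT replicate 1 was the lowest of the 6 libraries for Mpo (0.969 TPM against 0.986 to 1.601 TPM) and Prtn3 (24.1 TPM against 25.8 to 32.9 TPM). The summed level of the neutrophil and monocyte markers, of which 6 of 15 had a row, was 103 to 132 TPM in WT and 90.7 to 117.5 TPM in MecomWT:R751W. Their part in the receptor values was not tested.

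**Figure D3:**
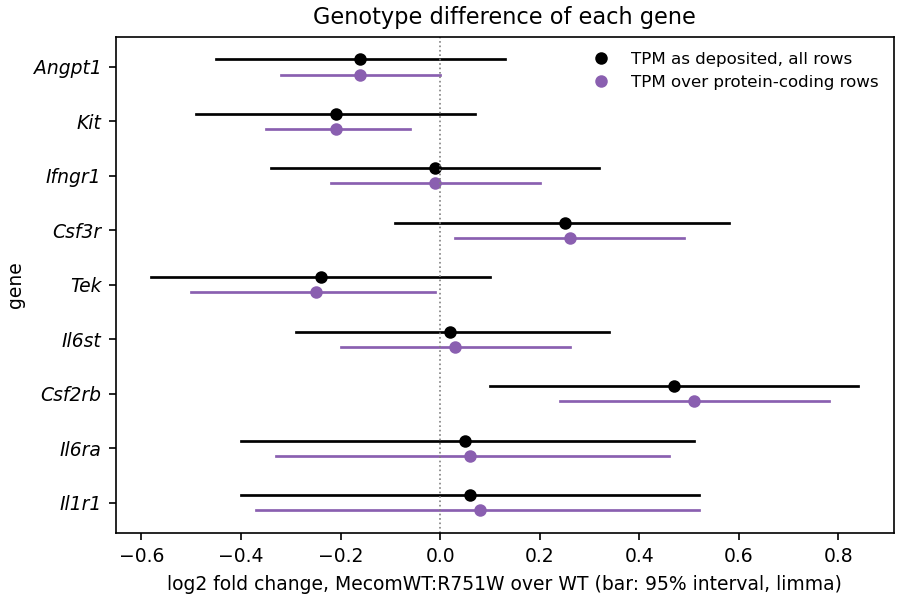
Log2 fold change of each gene, MecomWT:R751W over WT, from limma on TPM as deposited (black) and on TPM rescaled over protein-coding rows (purple), with 95% intervals as bars. Black intervals include 0 for each gene except Csf2rb, and purple intervals lie on one side of 0 for Kit, Tek, Csf3r and Csf2rb before adjustment for the number of genes tested.

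Counted over the set, the groups did not overlap in TPM for 1 gene higher in MecomWT:R751W (Csf2rb, 1 of 9, beside 4.50% of all genes) and for 1 lower (Tek, 1 of 9, beside 4.70%). In scaled TPM there was 1 higher (beside 7.53%) and 3 lower, Kit, Tek and Angpt1 (beside 8.64%). At an unadjusted p under 0.05 in scaled TPM there were 4 of 9, Kit, Tek, Csf3r and Csf2rb, beside 11.0% of genes. None of the 9 passed the adjusted threshold there, where 0.137% of genes did. None passed either when protein-coding rows were tested in TPM as deposited, where 1.16% of 11391 genes passed. The median log2 fold change of the 9 genes was 0.02, beside -0.0037 over all genes tested.

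Receptor chains work in pairs, so the genes were also set against their partners within each library, which removes the scaling of the library. Of 9 such ratios, 4 did not overlap between genotypes, and each had the smallest exact two-sided permutation p of 0.1 (0.225 adjusted over the 9 ratios). Of these 4, 3 have Csf2rb as their numerator and 1 has Tek, genes that did not overlap by themselves, so the ratios are not separate observations. The ratio of Csf2rb to Csf2ra, the GM-CSF-binding chain, was 2.13, 1.26 and 2.22 in WT and 3.35, 3.40 and 3.28 in MecomWT:R751W. The ratio of Csf2rb to Il3ra, the IL-3-binding chain, was 2.50, 2.19 and 2.44 in WT and 3.61, 3.44 and 4.66 in MecomWT:R751W. Both ratios were higher in each MecomWT:R751W library.
The ratio of Csf2rb to Csf2rb2 was 1.86 to 2.16 in WT and 2.79 to 3.22 in MecomWT:R751W. Tek relative to Tie1, the receptor that pairs with TIE2, was lower in MecomWT:R751W, at 0.401, 0.332 and 0.359 against 0.460, 0.483 and 0.428 in WT. Tie1 itself had a mean of 40.6 ± 3.41 TPM in the WT libraries and of 42.7 ± 5.05 TPM in the others (SD, n = 3 each), above Tek in each library.
The other 5 ratios overlapped. Il6ra was at 0.361 to 0.609 of Il6st in WT and 0.375 to 0.511 in MecomWT:R751W. Ifngr1 was 5.09 to 6.48 times Ifngr2, its signalling partner, in WT and 5.47 to 6.44 times in MecomWT:R751W. Il1r1 was 0.827 to 1.28 times its accessory chain Il1rap in WT and 0.920 to 1.38 times in MecomWT:R751W. Angpt1 was 22.9 to 31.9 times Angpt2, the context-dependent angiopoietin, in WT and 21.6 to 26.6 times in MecomWT:R751W, and it was 12.9 to 17.7 times its receptor Tek over the 6 libraries.

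**Figure D4:**
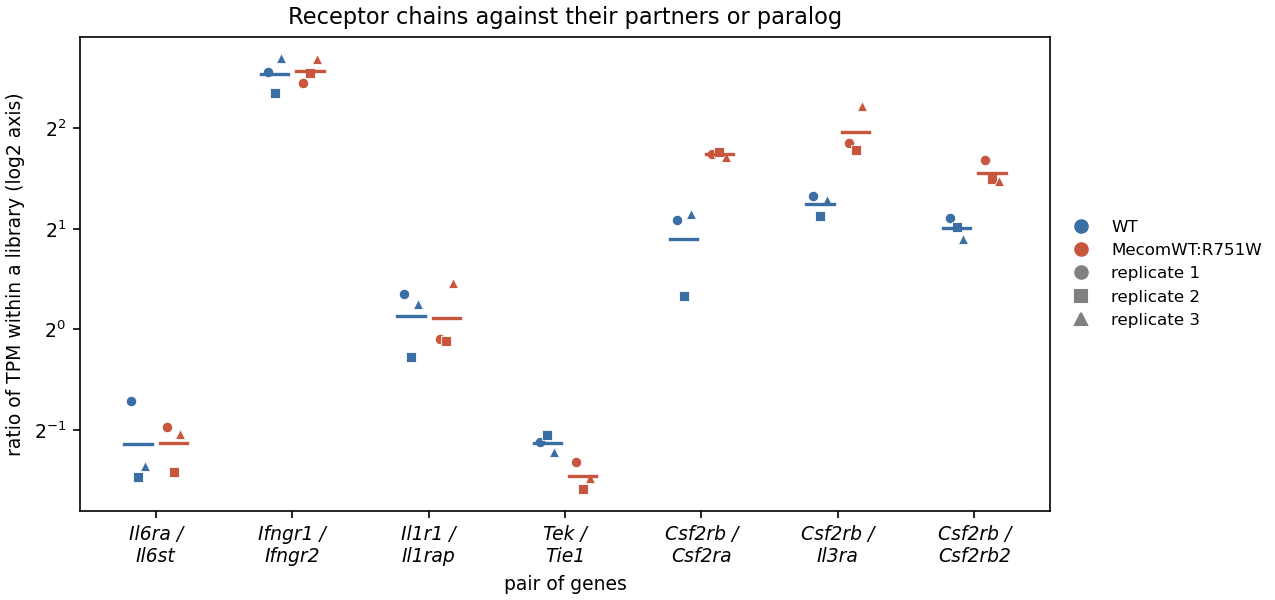
Ratio of TPM between a receptor chain and its partner or paralog within each library, on a log2 axis, with 1 point per library and a bar at the mean of each genotype. The 3 ratios with Csf2rb are higher, and Tek over Tie1 lower, in each of the MecomWT:R751W points than in all WT points, while the other 3 ratios shown overlap.

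Of 13 partner chains listed, 10 had a row and all 10 were tested, and none passed the adjusted threshold. Of these, 3 had a log2 fold change above 0 and 7 below, with a median of -0.05. Il11ra1, the IL-11-binding chain that pairs with gp130, was at 31.8, 27.4 and 27.9 TPM in WT and at 23.0, 24.0 and 23.8 TPM in MecomWT:R751W, without overlap (log2 fold change -0.28, SE 0.13, adjusted p = 0.825 by limma). Csf2ra also did not overlap, with WT libraries at 3.43 to 4.42 TPM and MecomWT:R751W libraries at 2.80 to 3.21 TPM (log2 fold change -0.28). Il1rl2, the IL-36 receptor, lay higher, with each of its MecomWT:R751W libraries (1.98 to 2.22 TPM) above each WT library (1.34 to 1.95 TPM). Il3ra stood at -0.13, Ifngr2 at -0.03, Il1rap at 0.08, Tie1 at 0.07 and Il27ra at -0.06 on the log2 scale. The decoy receptor Il1r2 stood at -0.14 but at 0.34 without WT replicate 1, where it was at 4.06 TPM against 0.830 to 2.11 TPM in the other libraries.
Of 17 ligands, 6 had a row and 5 passed the filter of a mean of 1 TPM, with none called, 4 above 0 and 1 below. Angpt2 had a mean of 10.01 ± 3.19 TPM in the WT libraries and of 10.3 ± 1.05 TPM in the others (SD, n = 3 each). Osm, a cytokine that acts through gp130, was at 1.32 ± 0.240 and 1.97 ± 0.511 TPM, without overlap. Il27 stood at a log2 fold change of 0.38, which was 0.10 without WT replicate 2 and 0.80 without WT replicate 1. Ctf1 stood at -0.31, and at -0.05 without MecomWT:R751W replicate 1. Clcf1 stood at 0.01, and Lif was at 0.420 and 0.219 TPM, under the filter. Angpt1 was thus the ligand with the highest level among those with a row.

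Among 24 other cytokine receptors tested, 0 passed, with 15 above 0 and 9 below and a median of 0.06. Flt3, the FLT3 ligand receptor of lymphoid-primed progenitors, stood at 0.96 (SE 0.16), Il10ra, the IL-10-binding chain, at 0.82 (SE 0.20) and Il17rb, the IL-25 receptor, at -0.52 (SE 0.19) on the log2 scale. Over protein-coding rows alone limma called Flt3 and Il10ra. In scaled TPM it called Flt3 (adjusted p = 0.0192) and not Il10ra (adjusted p = 0.139). The fit over protein-coding rows also called genes whose groups overlapped, such as Thbs1 and Cd4 (adjusted p = 5.07e-06 and 0.0288 by limma), so its calls do not imply separate groups.
Of 12 other receptor tyrosine kinases tested, 8 were above 0 and 4 below, with a median of 0.03. Fgfr1, a fibroblast growth factor receptor, stood at -0.63 (SE 0.22) and at -0.38 without WT replicate 1, Igf2r, the scavenger receptor of IGF2 kept in this list although it has no kinase, at 0.51 (SE 0.19) and Pdgfrb at -0.45 (SE 0.23).
Signalling genes below KIT and TIE2 lay near 0. Of 26, 8 were above 0 and 18 below, with a median of -0.05. Sh2b2, an adaptor of receptor kinases, stood at -0.40, Pik3r1, the regulatory subunit of PI3 kinase, at 0.18 and Dok2, an adaptor that binds TIE2, at 0.19.

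JAK and STAT genes were the tightest of these lists. All 11 were tested, 2 were above 0 and 9 below, with a median of -0.04. Stat5a stood at -0.18, Jak3 at -0.09 and Stat6 at 0.08. Of 12 SOCS genes and other receptor brakes, 6 were above 0 and 6 below. Socs2, a STAT5 target that restrains growth hormone signalling, had values of 2.30, 2.33 and 2.62 TPM in WT and of 4.84, 4.00 and 4.71 TPM in MecomWT:R751W. Its log2 fold change was 0.69 (SE 0.18, adjusted p = 0.366 by limma over all rows, 0.0408 over protein-coding rows and 0.105 in scaled TPM). Socs3, which blocks gp130 and the G-CSF receptor, was at 9.02, 4.25 and 3.84 TPM in WT and at 4.69, 2.86 and 1.78 TPM in MecomWT:R751W, with overlap. Its log2 fold change was -0.69 (SE 0.30), and -0.36 without WT replicate 1. Socs5 stood at 0.14.
Of 15 genes of IL-1 receptor signalling, 6 were above 0 and 9 below, with a median of -0.06. Irak2, a kinase-like adaptor of this receptor, was at 4.69, 4.68 and 3.72 TPM in WT and 2.44, 2.36 and 2.83 TPM in MecomWT:R751W, without overlap (log2 fold change -0.60, SE 0.18, adjusted p = 0.544 by limma). Tab3 stood at -0.21 and Traf6 at -0.17. Of 10 genes of receptor shedding and trafficking, 3 were above 0 and 7 below. Rhbdf1 stood at -0.41 and Rhbdf2 at 0.37, both rhomboid-like partners of the sheddase ADAM17, and Nucb2 at -0.35. No gene of these lists passed the adjusted threshold over all rows, where 0% of genes did.

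**Figure D5:**
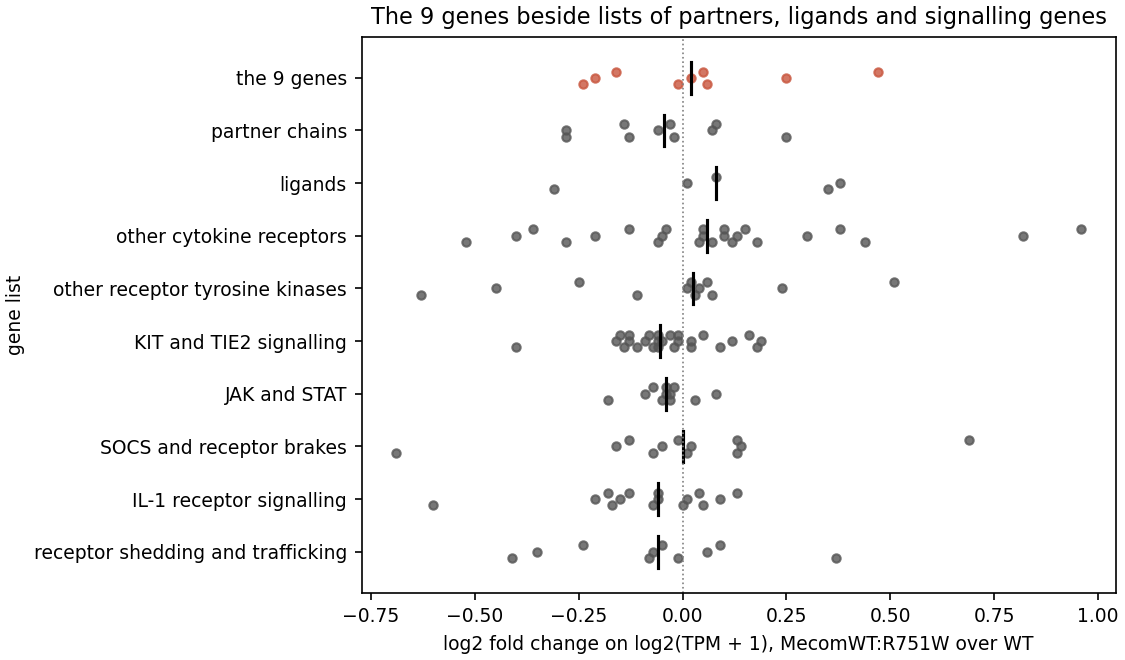
Log2 fold change on log2(TPM + 1), MecomWT:R751W over WT, of each tested gene (point) in the 9-gene set and in 9 lists of partner, ligand, receptor and signalling genes, with the median of each list as a bar. Medians lie between -0.06 and 0.08, and JAK and STAT genes spread least.

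Markers of other cells were read beside these values. The T and NK cell markers with a row, 5 of 12, summed to 9.05 to 10.1 TPM in WT and 19.2 to 21.6 TPM in MecomWT:R751W, without overlap. Of the 5, Nkg7 (means of 4.32 and 11.2 TPM, WT first) and Thy1 (1.65 and 3.29 TPM) were higher in each MecomWT:R751W library, beside 4.50% of all genes. Nkg7 had an adjusted p of 0.0856 by limma over all rows. It passed by limma in scaled TPM (adjusted p = 0.0192) and over protein-coding rows (9.97e-07), and by limma-voom (0.0483). Thy1 passed by limma over protein-coding rows (adjusted p = 0.0498) and not in scaled TPM (0.255). Cd4, Lck and Klrb1c overlapped, and Cd3e, Cd3d, Cd3g, Cd8a and Trac had no row. Among the other lists, megakaryocyte and platelet markers (10 of 12 with a row) summed to 253 to 313 TPM in WT and 217 to 275 TPM in MecomWT:R751W. Of these, Thbs1 had a lower mean in MecomWT:R751W that WT replicate 1 (46.6 TPM) and WT replicate 2 (15.6 TPM) carried, with 3.05 to 4.17 TPM in the other 4 libraries. Mast cell and basophil markers (2 of 10, Gata2 and Cpa3) summed to 112 to 130 TPM in both groups. Erythroid markers (11 of 13) summed to 317 to 388 TPM in WT and 313 to 385 TPM in MecomWT:R751W, but Car2 alone made up 271 to 364 TPM of this. Of the 11, 5 were higher in each MecomWT:R751W library, beside 4.50% of all genes. These 5 had an unadjusted p under 0.05 by limma, beside 457 of all 16655 genes tested that were higher at this p. None of the 5 passed the adjusted threshold over all rows or in scaled TPM. Klf1, the erythroid transcription factor, had means of 1.81 and 4.16 TPM (WT, then MecomWT:R751W), Car1 of 0.829 and 4.44 TPM, Ermap of 0.773 and 2.58 TPM, Rhd of 0.690 and 2.34 TPM and Sptb of 0.679 and 1.54 TPM. The Car1 mean in MecomWT:R751W was carried by replicate 2, at 8.93 TPM against 1.71 and 2.69 TPM in replicates 1 and 3. Over protein-coding rows alone, where 1.16% of genes passed, limma called Klf1, Car1, Ermap and Rhd. Their adjusted p was 0.0053, 4.18e-05, 0.00157 and 0.00308 by limma, and Sptb was not called (0.229). With voom only Sptb passed of these 5 (adjusted p = 0.0208 by limma-voom). The globin genes with a row, Hbb-bs, Hbb-bt and Hba-a1, overlapped. Stromal and bone markers (4 of 11) summed to 25.7 to 31.1 and 27.2 to 36.3 TPM, with overlap. In scaled TPM this sum was higher in each MecomWT:R751W library. There Runx2 was at 80.3 to 83.7 in WT and 92.0 to 106.2 in MecomWT:R751W (unadjusted p = 0.00706, adjusted p = 0.242 by limma). Pdgfrb, Col1a1 and Col1a2 overlapped on that scale. The B cell markers were read through Cd79b alone, at 5.30 to 8.21 and 6.38 to 8.11 TPM. Their part in the receptor values was not tested.

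For each gene averaging 5 TPM or more, the genes with the most similar profile were found among 8336 protein-coding genes, by Pearson r of log2(TPM + 1) over the 6 libraries. These likenesses describe 6 points, and all of them share the protein-coding part of each library. The closest to Kit were Mvp and Kansl1l, to Angpt1 Wdr1 and Khdc4, to Tek Klhdc1 and Rassf4, and to Csf3r Pkm and Pdcd2. The closest to Csf2rb were Fignl1 and Pola1, to Il6st Ttc32 and Ap4e1, to Il6ra Ncor1 and CYTB, and to Ifngr1 Mad1l1 and Rp2. The r of these genes ran from 0.986 to 0.998, and Mvp stood at 0.993 to Kit and Fignl1 at 0.995 to Csf2rb.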

How the data were processed

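RNA of sorted SLAM-LSK cells was sequenced in 3 WT and 3 MecomWT:R751W libraries. The authors deposited TPM for 18465 genes, 1 column per library, each with the same sum. Per the submitters' processing notes, the build was mm10 and DESeq2 is listed without its role, and no aligner, counter, strand setting or annotation is named in the sources used. Gene types, coordinates and promoters come from RefSeq GRCm38.p6 (mm10), exons and transcripts from GENCODE M21.

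Limma 3.58.1 (R 4.3.3) was run with a mean-variance trend on log2(TPM + 1), with genotype alone in the model, on genes averaging 1 TPM or more, with two-sided Benjamini-Hochberg adjustment over all genes tested and a threshold of 0.05. It was tested on simulated data. Single values and ratios were compared by exact permutation tests. Within each gene, TPM stood in ratios of whole reads after 1 factor per library (100% of genes, tolerance 0.001 reads). Where the counts of a gene share a divisor, the smallest whole numbers are given. These reads give depth and counting error only, and enter limma-voom (mean of at least 10 reads) as an added alternative. Alternatives changed the pseudocount (0.1, 5), the filter (5 TPM, none), rows, scaling, trend and replicate block, and left out each library. The members, lists and tests were chosen with earlier results of these data known. Named were all members, all partner chains and ligands, and 3 genes of smallest unadjusted p per other list. Python 3.11.15, numpy 2.4.6, pandas 2.3.3, Biopython 1.88 and matplotlib 3.10.9 were used.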

Additional observations from a re-analysis of the deposited data

How the results depend on the processing

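None of the 9 genes was called in any planned setting, and 1 (Csf2rb) was called with voom on implied reads. Over all genes, where 0 were called, 2 were called with a mean of at least 5 TPM, 132 over protein-coding rows, 17 after rescaling over them and 110 with voom. Leaving out 1 library gave 0 to 13. Fewer genes are tested in the first 4 of these settings, and the variance between replicates is also modelled afresh on the rows kept. Thbs1, whose groups overlapped, had an adjusted p of 0.651 by limma over all rows and of 5.07e-06 over protein-coding rows. What part each of these had in the calls was not tested. Among the partner, ligand and signalling lists the calls were 3 over protein-coding rows (Flt3, Il10ra and Socs2), 1 after rescaling (Flt3) and 3 with voom (Flt3, Igf2r and Socs2). Of 143 values of the 9 genes under alternatives, 132 kept their direction and their side of the threshold, 10 turned sign and 1 passed. The turned signs were of genes near 0. Ifngr1 was at 0.00 with median-centred libraries. Leaving out 1 library gave -0.18 to 0.09 for Ifngr1, -0.02 to 0.07 for Il6st, -0.08 to 0.22 for Il6ra and -0.07 to 0.22 for Il1r1, and the cause was not tested. The median of all genes moved to -0.065 without WT replicate 2 and to 0.053 without MecomWT:R751W replicate 2. Of 556 values of 36 other named genes, 15 moved by more than the spread between replicates. The size of some genes of low TPM depended on the pseudocount, while their sign did not. Il10ra stood at 1.23 with a pseudocount of 0.1 and at 0.34 with 5, and Socs2 at 0.87 and 0.36. Irak2 stood at -0.75 and -0.31, and Il17rb at -0.71 and -0.23, in the same order. Leaving out 1 library also took Osm from 0.35 to 0.21, Rhbdf2 from 0.37 to 0.22, Stat5a from -0.18 to -0.08, Tab3 from -0.21 to -0.10, Traf6 from -0.17 to -0.07, Socs5 from 0.14 to 0.05 and Il3ra from -0.13 to -0.06.

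Replicate numbers are shared between the genotypes. Deviations of same-numbered libraries had r of 0.14, 0.089 and 0.083, and each library was closest to its own number, which is a hint from the data and not from the design. With a replicate block 0 genes were called, and Kit stood at an adjusted p of 0.441 and Csf2rb at 0.397. Depth limits Il6ra and Il1r1 most, where counting error alone was about 8.35% and 7.97% of a library's value.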
